A study of Mus musculus with 25 samples.

Results

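The aryl hydrocarbon receptor gene and 9 target genes of this receptor or of NRF2 were followed in embryoid bodies (EBs), the clusters that mouse embryonic stem cells form when they start to differentiate. The members were Ahr, Cyp1b1, Tiparp, Ahrr, Nqo1, Hmox1, Gclc, Gclm, Txnrd1 and Srxn1, taken as every probe that the platform annotation names with 1 of these symbols, without regard to its values, 10 of 19057 genes named on the array. This gave 13 of the 45281 probes of the array. Of them, 11 probes, for 9 of the 10 genes, were detected (p under 0.01 against negative control beads) on at least 2 of the 25 arrays, as were 19140 probes in all, and entered the tests.

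The embryonic stem cells (line B6G-2, C57BL/6 background, from a mouse with GFP in all cells) were exposed for 48 h from the removal of LIF, the factor that keeps them undifferentiated, and RNA of each condition was put on an Illumina Mouse WG-6 bead array. The chemicals were TCDD (a chlorinated dioxin), PCB (a hydroxylated pentachlorobiphenyl), DEX (dexamethasone), T3 (thyroid hormone), E2 (estradiol) and DHT (dihydrotestosterone) at 1 and 10 nM, BPA (bisphenol A) at 1 and 100 pM, TMD (thalidomide), PMT (permethrin) and CPM (cyclopamine) at 0.1 and 10 uM, and DEHP (a phthalate) and MPA (methoprene acid) at 1 and 100 uM. The only control was the solvent DMSO at 0.1%, with 1 array. Each chemical and dose also had 1 array, so the error below was taken from the gap between a chemical's doses, pooled over all 12 chemicals (12 residual degrees of freedom), which holds technical noise and any effect of dose. All cells came from 1 line that had been grown on fibroblast feeder cells, and the p-values measure only the spread between these arrays.

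AHR is a transcription factor held in the cytosol by chaperones until a ligand such as TCDD binds it. It then enters the nucleus, pairs with ARNT and binds xenobiotic response elements in front of genes of the cytochrome P450 family, its own repressor Ahrr, and Tiparp, whose product modifies proteins with ADP-ribose and restrains AHR. NRF2, encoded by Nfe2l2, is kept low by KEAP1 until oxidants or electrophiles modify KEAP1. NRF2 then binds antioxidant response elements with small MAF proteins and raises enzymes that make glutathione, repair oxidised proteins and detoxify quinones. Nqo1 is known as a target of both factors.

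The promoters are shown because both elements can be read in them directly. RefSeq (GRCm38.p6) promoters of 300 bases, from 250 bases before the gene start to 50 after it, were at hand for 7 of the 10 members, with 9 promoters among them since Txnrd1 has 3. The core of the xenobiotic response element, GCGTG on either strand, was found in promoters of 6 of the 7 members and in 32.4% of 32851 mouse promoters of the same length. The core of the antioxidant response element, TGACNNNGC on either strand, was found for 3 members and in 12.4% of all promoters. The shares are of single promoters, whereas a member counts once if any of its promoters has a match, so the figures are not like for like. The xenobiotic core was not confined to the AHR targets. Besides Cyp1b1, Ahrr and Tiparp, it was in Gclm (3 matches), Srxn1 (2 matches) and all 3 Txnrd1 promoters. Nqo1 had neither core in this window. The pair of AHR targets below have the letters of the first core in capitals, GCGTG or, for the other strand, CACGC.
Cyp1b1 (chr17:79715012-79715311, minus strand): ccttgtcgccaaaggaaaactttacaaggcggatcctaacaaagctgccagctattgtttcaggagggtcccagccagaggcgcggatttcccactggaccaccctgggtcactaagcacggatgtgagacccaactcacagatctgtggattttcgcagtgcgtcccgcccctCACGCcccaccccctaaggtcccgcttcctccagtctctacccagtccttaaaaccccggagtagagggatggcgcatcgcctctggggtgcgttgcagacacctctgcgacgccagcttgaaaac
Ahrr (chr13:74292282-74292581, minus strand): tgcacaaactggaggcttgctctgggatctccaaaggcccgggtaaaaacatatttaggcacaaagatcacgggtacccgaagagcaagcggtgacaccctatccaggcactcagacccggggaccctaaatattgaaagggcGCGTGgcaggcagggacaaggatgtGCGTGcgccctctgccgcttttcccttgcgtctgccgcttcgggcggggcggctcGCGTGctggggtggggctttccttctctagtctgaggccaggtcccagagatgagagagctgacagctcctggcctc

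Cyp1b1 had 1 match, starting at base -76 counted from the gene start, and Ahrr had 3 matches. The promoters of Gclm, Srxn1 and the second start of Txnrd1 follow, with the antioxidant response element core in capitals, each match lying on the other strand.
Gclm (chr3:122245307-122245606, plus strand): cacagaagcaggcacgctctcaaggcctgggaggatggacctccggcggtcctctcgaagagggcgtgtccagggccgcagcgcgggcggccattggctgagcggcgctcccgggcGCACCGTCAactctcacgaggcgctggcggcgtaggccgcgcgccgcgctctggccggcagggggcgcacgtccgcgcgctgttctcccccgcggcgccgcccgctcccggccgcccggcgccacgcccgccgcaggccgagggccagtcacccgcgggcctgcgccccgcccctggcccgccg
Srxn1 (chr2:152105274-152105573, plus strand): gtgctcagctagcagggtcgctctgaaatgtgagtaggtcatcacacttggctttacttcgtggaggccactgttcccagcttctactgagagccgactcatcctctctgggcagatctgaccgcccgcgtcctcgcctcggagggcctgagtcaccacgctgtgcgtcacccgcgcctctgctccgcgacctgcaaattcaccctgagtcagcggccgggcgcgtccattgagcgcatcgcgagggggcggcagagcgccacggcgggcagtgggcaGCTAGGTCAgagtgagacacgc
Txnrd1 (chr10:82858956-82859255, plus strand): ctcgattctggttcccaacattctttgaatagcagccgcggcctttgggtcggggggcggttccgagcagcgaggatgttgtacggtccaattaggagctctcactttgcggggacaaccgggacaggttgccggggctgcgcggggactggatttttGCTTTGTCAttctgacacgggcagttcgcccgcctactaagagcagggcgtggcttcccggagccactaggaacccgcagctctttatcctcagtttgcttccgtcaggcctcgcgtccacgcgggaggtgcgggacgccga

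A match of these letters is a description of the window and not a shown binding site. Other spellings of either element were not searched, so unmarked letters do not show that an element is absent. The 3 genes are the modifier subunit of the enzyme that limits glutathione synthesis (Gclm), the enzyme that repairs overoxidised peroxiredoxins (Srxn1) and cytosolic thioredoxin reductase (Txnrd1), and each is followed through the chemicals below.

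The receptor itself was not measured above background. The Ahr probe was detected on 0 of 25 arrays, with signals between -33.5 and 1.82 and a lowest detection p of 0.384. Cyp1a1, the P450 gene most used as a sign of AHR activity, was also detected on 0 arrays, as were Cyp1a2, Ugt1a6a and Gsta1, while Aldh3a1 and Ugt1a6b were each detected on 1 array. The AHR partner Arnt was detected on all 25 arrays at a mean log2 signal of 10.0, and so were the chaperone genes Hsp90aa1 (12.59) and Ptges3 (10.44). A probe below background gives no level, so it cannot be said from these arrays whether Ahr was transcribed at a low level.

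The AHR target genes lay close to background. Cyp1b1, a P450 that oxidises estrogens and polycyclic hydrocarbons, was detected on 5 arrays, those of BPA 1 pM and 100 pM, TCDD 1 nM, PCB 10 nM and CPM 0.1 uM. Tiparp was detected on 5 arrays (DHT 10 nM, PCB 1 nM, DEHP 100 uM, PMT 0.1 uM and DMSO), and Ahrr on 2 (DEX 1 nM and PMT 0.1 uM). The log2 signals ran between 4.74 and 6.20 for Cyp1b1, 4.92 and 6.38 for Tiparp, and 5.07 and 5.91 for Ahrr. The NRF2 targets were better measured. Nqo1, Hmox1, Gclm, Txnrd1 and all 3 probes of Srxn1 were detected on 25 of 25 arrays, and Gclc, the catalytic subunit of the enzyme that limits glutathione synthesis, on 14. A second Nqo1 probe (ILMN_2766386) was detected on 0 arrays, and the Nqo1 values below are of the other one.

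**Figure D1:**
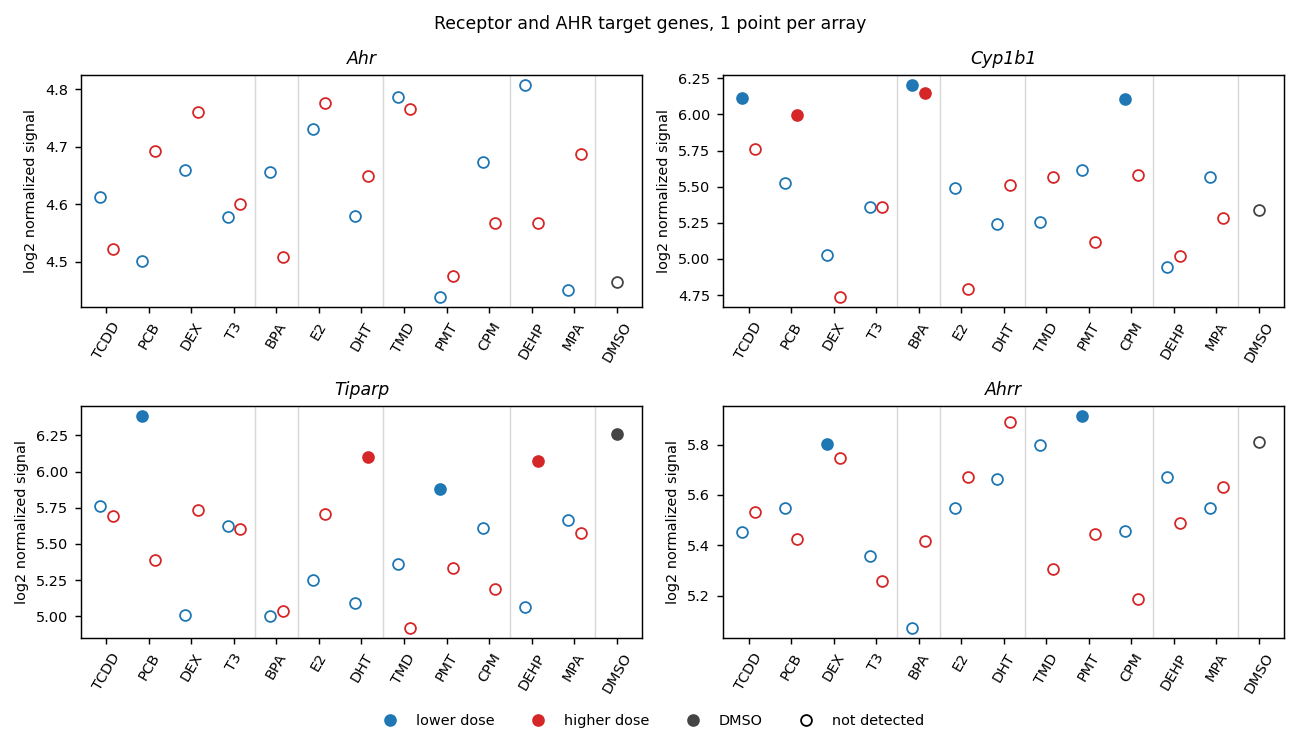
Log2 normalized signal (vertical axis) of Ahr, Cyp1b1, Tiparp and Ahrr on each of the 25 arrays, by chemical, with lower doses in blue, higher doses in red and DMSO in grey. Open points were not detected: all 25 are open for Ahr, and 5 are filled for Cyp1b1, among them both of BPA.

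TCDD is the AHR ligand of the series, and T3 and DEX were given at its doses and lie in the same normalization set of the authors. No member passed the test for TCDD against T3 and DEX, and neither did any other of the 19140 probes (0% called, and 1251 had an unadjusted p under 0.05). The member with the widest difference was Cyp1b1. Its signal was 36.0 at 1 nM and 24.6 at 10 nM of TCDD, against 23.5 and 20.7 with T3 and 8.10 and -2.77 with DEX. On the log2 scale these were 6.11 and 5.76 with TCDD, against 5.36 and 5.36 with T3 and 5.03 and 4.74 with DEX. Both TCDD arrays were thus above all 4 others, and the 1 nM array, the only 1 of the 6 that was detected, was above the 10 nM array. The log2 difference was 0.82 ± 0.26 (SE, n = 2 and 4 arrays), with an unadjusted p of 0.00381 and an adjusted p of 0.546 from limma. Since only 1 of the TCDD arrays and none of T3 and DEX was detected, no fold is given. Among the 8 arrays of TCDD, PCB, T3 and DEX, the TCDD arrays ranked 1 and 3, and an exact permutation test (two-sided) gave p = 0.107, where the smallest p that 28 choices allow is 0.0357.

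The other AHR targets gave smaller differences. Tiparp had log2 signals of 5.76 and 5.69 with TCDD, against 5.63, 5.60, 5.01 and 5.73 with T3 and DEX, all of them below detection. Ahrr had 5.45 and 5.53 with TCDD, against 5.36, 5.26, 5.80 and 5.75, and the TCDD values lay inside that range. The interval of the log2 difference ran from -0.41 to 0.88 for Tiparp and from -0.53 to 0.43 for Ahrr (95%), so changes of these sizes could not be told from none.

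Nqo1, which reduces quinones, had log2 signals of 8.87 and 8.74 with TCDD, against 8.46 and 8.52 with T3 and 8.98 and 8.88 with DEX. Those with TCDD lay between those with T3 and those with DEX, and the difference was 0.10 ± 0.15 (SE, 95% interval -0.21 to 0.40, adjusted p = 0.964). Hmox1, which breaks down heme, had a difference of -0.13 ± 0.15, Gclm of 0.06 ± 0.10 and Gclc of -0.13 ± 0.25. Txnrd1 had 7.87 at 1 nM and 6.76 at 10 nM of TCDD, against 7.54, 7.60, 7.46 and 7.38 with T3 and DEX. Its TCDD arrays lay on opposite sides of the others, with 1 above and 1 below all 4. The median log2 difference over the 9 members tested was 0.05, against -0.00162 over all probes.

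The probes of Srxn1 did not go one way with TCDD. The brightest probe (ILMN_2677772) had 9.75 and 9.64 with TCDD, against 9.80, 9.46, 9.62 and 9.70 with T3 and DEX, a difference of 0.05 ± 0.11 (SE). The dimmest (ILMN_1229994) had 6.34 and 6.14 with TCDD, against 6.91, 6.75, 6.34 and 6.57, a difference of -0.40 ± 0.18 (SE, adjusted p = 0.750). Its TCDD arrays were the lowest of all 24 arrays of exposed EBs (exact permutation test, two-sided, p = 0.00362, the smallest that these arrays allow, and 0.159 after adjustment over 44 such tests). The third probe (ILMN_2667346) gave 0.09 ± 0.12. All 3 carry the same transcript accession in the annotation, and which of them follows the gene was not tested.

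Of the wider lists, 0 genes passed with TCDD against T3 and DEX. These were 0 of 3 AHR partners and chaperones tested, 0 of 4 other AHR genes, 0 of 7 NRF2 regulators and 0 of 19 other NRF2 targets. The summed signal of 7 endoderm markers was 23430 to 25363 with TCDD, against 22304 to 25379 with T3 and DEX, so the ranges overlapped. The signals of the TCDD arrays were lower overall before normalization, with an upper quartile of 88.8 to 90, against 102 to 145 with T3 and DEX. In the comparisons below, this quartile was 136 to 162 with PCB. With BPA it was 124 to 163, against 79.4 to 116 with E2 and DHT. With TMD, PMT and CPM it was 142 to 187, and with DEHP and MPA 140 to 172, against 128 on DMSO. The part of these gaps in the values near background was not tested.

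**Figure D2:**
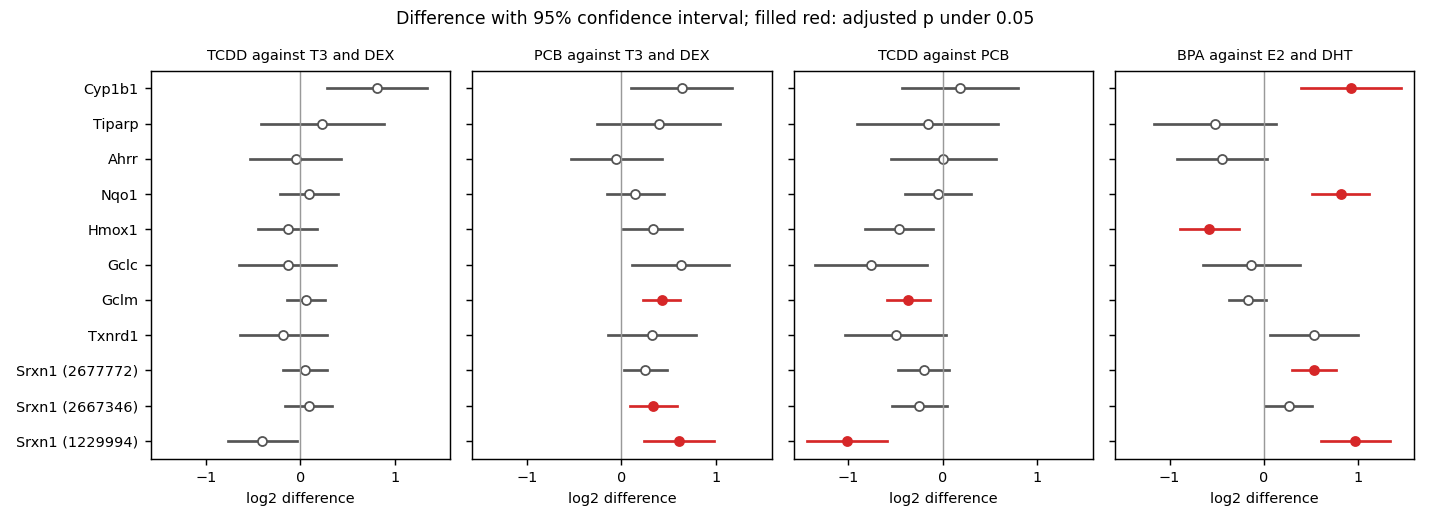
Log2 difference (horizontal axis) of each tested member probe in 4 comparisons, with 95% confidence intervals from limma, filled red where the adjusted p was under 0.05. No probe is filled for TCDD against T3 and DEX, and Gclm with a pair of Srxn1 probes are filled for PCB against T3 and DEX.

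PCB differed more from T3 and DEX. Gclm was higher with PCB than with T3 and DEX. It was the only 1 of 9 members whose brightest probe passed, where 23.6% of all probes passed. Gclm had log2 signals of 12.04 and 12.22 with PCB, against 11.74 and 11.71 with T3 and 11.68 and 11.69 with DEX. On DMSO, in another normalization set of the authors, Gclm had 12.04. The difference from DMSO was 0.09 with PCB, -0.32 with T3 and -0.35 with DEX. The PCB arrays stood clear of the 4 of T3 and DEX, whose values lay close together. The difference of PCB from T3 and DEX was 0.43 ± 0.10 (SE, n = 2 and 4 arrays, adjusted p = 0.00167 from limma), a 1.34-fold higher level. Without the 10 nM array of PCB it was 0.33 with an adjusted p of 0.0824.

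Srxn1 was higher with PCB than with T3 and DEX by a pair of its probes. ILMN_1229994 had 7.19 and 7.31 with PCB, against 6.91, 6.75, 6.34 and 6.57 with T3 and DEX, a difference of 0.61 ± 0.18 (SE, adjusted p = 0.0132). ILMN_2667346 had 9.29 and 9.21, against 8.87, 8.93, 8.91 and 8.95, a difference of 0.34 ± 0.12 (SE, adjusted p = 0.0423). The brightest probe had 9.91 and 9.89, against 9.80, 9.46, 9.62 and 9.70, a difference of 0.25 ± 0.11 (SE, adjusted p = 0.106, and 0.0403 without T3 1 nM). All 3 probes thus had both PCB arrays above all 4 others. With the mean of the 3 probes the difference was 0.40 (adjusted p = 0.0166). Against the DMSO array, where ILMN_1229994 had 7.23, the difference with PCB was 0.02 for this probe. It was 0.35 for ILMN_2667346 and -0.07 for the brightest probe.

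Hmox1, Gclc, Cyp1b1 and Txnrd1 also had both PCB arrays above all 4 of T3 and DEX, without passing the test. Hmox1 had 9.47 and 9.37 with PCB, against 9.16, 8.87, 9.08 and 9.23, a difference of 0.33 ± 0.15 (SE, adjusted p = 0.114, and 0.0474 with the 8 nanomolar arrays alone). Gclc had 5.77 and 6.29 with PCB, of which the second was detected, against 5.27, 5.38, 5.63 and 5.33, none detected. Its adjusted p was 0.0688, and 0.0344 with median scaling, 0.0364 in the authors' table and 0.0378 with the signal floored at 16. In exact permutation tests (two-sided) over the 8 arrays of PCB, T3, DEX and TCDD, Hmox1, Gclc, Gclm and the same pair of Srxn1 probes had p = 0.0357, the smallest possible, and 0.224 after adjustment over 44 tests. Cyp1b1 had 5.53 and 5.99 with PCB, against 5.36, 5.36, 5.03 and 4.74, a difference of 0.64 ± 0.26 (SE, adjusted p = 0.0741, and 0.0465 without the trend in the spread). Settings in which Hmox1, Gclc and Cyp1b1 did not pass are not named here. With 1 array left out, the difference ran from 0.26 to 0.41 for Hmox1 and from 0.37 to 0.89 for Gclc. For Cyp1b1 it ran from 0.40 to 0.87. Txnrd1 had 7.97 and 7.66 with PCB, against 7.54, 7.60, 7.46 and 7.38, a difference of 0.32 ± 0.23 (SE, adjusted p = 0.327). Tiparp was detected at 1 nM of PCB (6.38) and not at 10 nM (5.39). Nqo1 had 8.82 and 8.89 with PCB, within the range of T3 and DEX. The median over the 9 members was 0.33, against -0.0143 over all probes.

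Of 19 other NRF2 targets tested, 6 were higher and 0 lower with PCB, where 2320 of all 19140 probes were higher and 2203 lower (23.6% called in all). Txn1 (thioredoxin, the substrate of the Txnrd1 product) was 1.18 higher on the log2 scale, Ftl1 (ferritin light chain) 0.70, Cbr1 (a carbonyl reductase) 0.52, Gstm1 (a glutathione transferase) 0.44, Abcc4 (an exporter) 0.41 and Prdx1 (a peroxiredoxin) 0.22. The median of the 19 was 0.17. Among 7 NRF2 regulators, Bach1, a repressor that competes for the same elements, was 0.61 lower and the 6 others, Nfe2l2 and Keap1 among them, did not pass. Of the AHR partners, Hsp90aa1 was 0.59 higher and Ptges3 0.53 higher. Against the DMSO array, Bach1 was 0.95 higher with T3 and 0.77 higher with DEX, and it was not called with PCB.

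Cell type markers moved with these values. With PCB, 6 of 7 endoderm markers were lower than with T3 and DEX, and their summed signal was 11615 to 11877 with PCB, against 22304 to 25379. The eighth marker of that list, Afp, was detected on 0 arrays. Pluripotent markers summed to 17541 to 17647 with PCB, against 14813 to 17686 (2 of 5 higher, 1 lower). The part of this shift in the differences of the members was not tested, and in bulk RNA fewer cells of a type and less RNA per cell cannot be told apart. The feeder fibroblast markers Lum and Postn were detected on 0 arrays, and those tested summed to 517 to 589 with PCB, against 688 to 800.

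TCDD and PCB, both chlorinated aromatic compounds given at 1 and 10 nM, the biphenyl with a hydroxyl group, were also set against each other (23.2% of probes called). With Benjamini-Hochberg adjustment over all probes, Gclm was lower with TCDD, at 11.70 and 11.84, against 12.04 and 12.22 with PCB, a difference of -0.36 ± 0.11 (SE, n = 2 and 2 arrays, adjusted p = 0.0177). It lost the call with median scaling (adjusted p = 0.0558), without the trend in the spread (0.061), without TCDD 1 nM (0.147) or without PCB 10 nM (0.195). The Srxn1 probe ILMN_1229994 was lower with TCDD, at 6.34 and 6.14, against 7.19 and 7.31, a difference of -1.01 ± 0.21 (SE, adjusted p = 0.000665). The brightest Srxn1 probe had a difference of -0.20 ± 0.13 and did not pass, while the mean of the 3 probes gave -0.49 (adjusted p = 0.0124).

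Hmox1 and Gclc lay just above the threshold in the same comparison. Hmox1 had 9.01 and 8.90 with TCDD, against 9.47 and 9.37 with PCB, a difference of -0.47 ± 0.18 (SE, adjusted p = 0.0549). Gclc had 5.70 and 4.84 with TCDD, neither detected, against 5.77 and 6.29 with PCB (adjusted p = 0.0575). Without E2 10 nM, which entered only through the pooled spread, both passed (0.0331 and 0.0468), as Gclc did without the trend in the spread (0.0492). Hmox1 also passed with the 8 nanomolar arrays alone (0.0173), with a dose term (0.0494) and among probes detected on all arrays (0.0462). Settings in which Hmox1 and Gclc did not pass are not named. With 1 array left out, the difference ran from -0.52 to -0.41 for Hmox1 and from -1.19 to -0.33 for Gclc. Txnrd1 had 7.87 and 6.76 with TCDD, against 7.97 and 7.66 with PCB, a difference of -0.50 ± 0.26 (SE, adjusted p = 0.176). The 10 nM array of TCDD alone was below both PCB arrays, and the difference was -1.05 without TCDD 1 nM (adjusted p = 0.00898) and 0.057 without TCDD 10 nM (adjusted p = 0.919). The AHR targets showed no difference that could be told from none. Cyp1b1 differed by 0.18 (95% interval -0.43 to 0.79), Tiparp by -0.16 (-0.91 to 0.59) and Ahrr by 0.01 (-0.55 to 0.56), and Nqo1 by -0.05 (-0.40 to 0.30). These intervals leave room for differences in either direction, so the compounds were not shown to act alike.

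BPA, given at 1 and 100 pM, was set against E2 and DHT, which the authors normalized in the same set but which were given at other doses. Of all probes 39.4% were called, and 4 of 9 members, 3 higher and 1 lower. Cyp1b1 had signals of 67.3 and 48.2 with BPA, against 19.6 and 0.153 with E2 and 15.9 and 25.7 with DHT. Both BPA arrays were detected, and none of the 4 others was. The log2 difference was 0.92 ± 0.26 (SE, n = 2 and 4 arrays, adjusted p = 0.00578), with a bound of at least 1.10-fold. With median scaling it was 0.47 (adjusted p = 0.141), and without BPA 1 pM 0.89 (adjusted p = 0.0552).

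Nqo1, and Srxn1 by its brightest probe, had their highest signals with BPA. Nqo1 had 9.47 and 9.55 with BPA, against 8.63 and 8.91 with E2 and 8.68 and 8.57 with DHT. The BPA arrays were the highest of the 25 for this gene, and the difference was 0.81 ± 0.15 (SE, adjusted p = 7.42e-05), or 1.75-fold. The brightest Srxn1 probe had 10.50 and 10.55 with BPA, against 10.11, 9.79, 10.05 and 10.05, a difference of 0.53 ± 0.11 (SE, adjusted p = 0.000447). ILMN_1229994 gave 0.97 (adjusted p = 8.57e-05) and ILMN_2667346 0.26 (adjusted p = 0.0867).

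Hmox1 was lower with BPA, at 9.07 and 8.46, against 9.62 and 9.25 with E2 and 9.07 and 9.45 with DHT. Only the 100 pM array was clear of the others, the difference was -0.58 ± 0.15 (SE, adjusted p = 0.00316), and without the 100 pM array it was -0.28 (adjusted p = 0.264). Txnrd1 had a difference of 0.53 ± 0.23 (adjusted p = 0.0646), which ran from 0.32 to 0.73 with 1 array left out. Gclm (-0.18), Gclc (-0.13), Tiparp (-0.52) and Ahrr (-0.45) did not pass. The Gclm difference ran from -0.25 to -0.11 with 1 array left out. Tiparp passed with median scaling (adjusted p = 0.0076), and Ahrr with median scaling (-0.89, adjusted p = 0.00307) or without the trend in the spread (adjusted p = 0.0345). Settings in which Tiparp and Ahrr did not pass are not named.

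Of 19 other NRF2 targets, 8 were higher with BPA than with E2 and DHT and 2 were lower, where 4168 of all 19140 probes were higher and 3368 lower (39.4% called in all). With median scaling 41.8% of all calls were higher, against 55.3% with quantiles. Those higher included Abcc4 (0.94), Gsta4 (0.77), Gsta3 (0.64) and Gstm1 (0.49), and the lower ones were Me1, malic enzyme (-1.40), and Gstp1, a glutathione transferase (-0.45). Of 7 NRF2 regulators, Bach1 (-0.68) and Sqstm1, an autophagy receptor that binds KEAP1 (-0.99), were lower. Among 4 other AHR genes, Fgf21 (-2.25), Cdkn1b (-1.45) and Id2 (-1.07) were lower. Endoderm markers summed to 2321 to 2414 with BPA, against 18736 to 24491 with E2 and DHT, with 6 of 7 lower, and pluripotent markers to 29647 to 29683, against 16560 to 17876. The part of this change of cell types in the members' values was not tested.

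**Figure D3:**
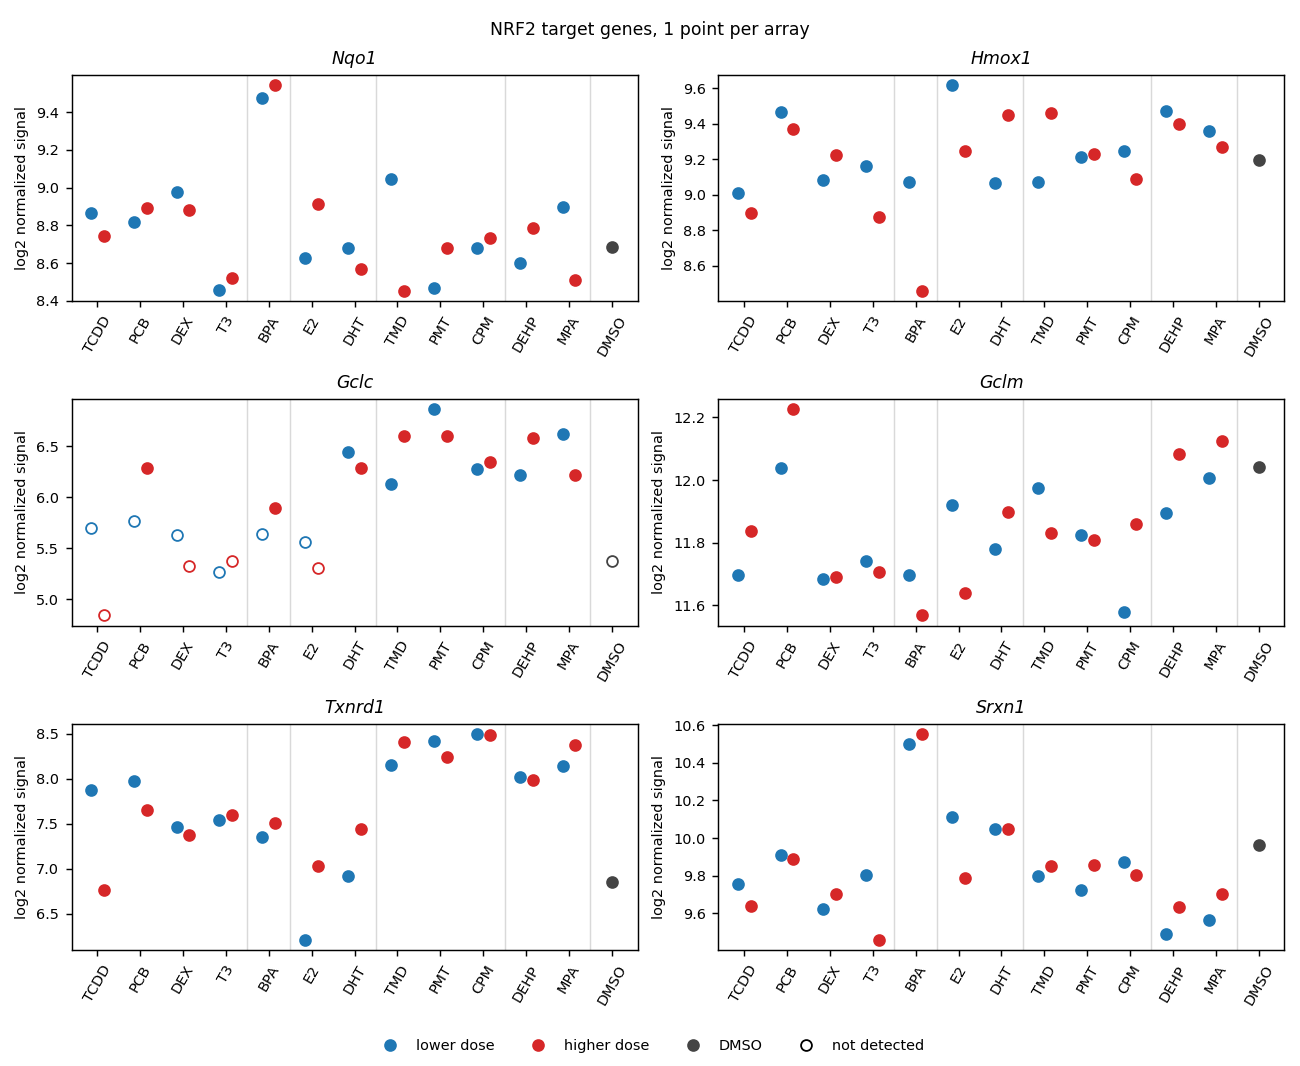
Log2 normalized signal (vertical axis) of the 6 NRF2 target genes on each of the 25 arrays, by chemical, coloured as in the plot of the AHR genes, with open points not detected. The BPA points are the highest for Nqo1 and Srxn1, and the points of TMD, PMT, CPM, DEHP and MPA are high for Txnrd1 and Gclc.

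Against the DMSO array, Txnrd1 and Gclc were the members that passed most often. Txnrd1 had a log2 signal of 6.86 on DMSO. It had 8.15 and 8.41 with TMD, 8.42 and 8.25 with PMT, 8.50 and 8.48 with CPM, 8.02 and 7.99 with DEHP, and 8.14 and 8.38 with MPA. The differences were 1.43, 1.48, 1.63, 1.15 and 1.40 in that order of chemicals (SE 0.32 each, n = 2 and 1 arrays), with adjusted p-values from limma between 0.000296 for CPM and 0.0101 for DEHP. With PCB the difference was 0.96 (adjusted p = 0.0326, 0.153 without PCB 1 nM and 0.0758 without the trend in the spread).

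Gclc was not detected on DMSO (log2 signal 5.37) and was detected on all 10 arrays of TMD, PMT, CPM, DEHP and MPA, at 6.13 to 6.86. The fitted differences were 0.99 for TMD, 1.35 for PMT, 0.94 for CPM, 1.02 for DEHP and 1.05 for MPA, with adjusted p-values of 0.035, 0.00426, 0.0462, 0.0353 and 0.0289. As bounds these were at least 1.27-fold, 1.64-fold, 1.23-fold, 1.30-fold and 1.32-fold higher. All but the PMT call were lost when 1 array was left out, with adjusted p-values of 0.20 without TMD 10 uM, 0.096 and 0.127 without either array of CPM, 0.171 without DEHP 100 uM and 0.145 without MPA 1 uM. Without a filter on detection the adjusted p was 0.0611 to 0.0952 for the same 4 chemicals, and for CPM it was 0.0622 with median scaling. With DHT, Gclc was detected on both arrays (6.45 and 6.29), a bound of at least 1.28-fold over DMSO, and did not pass (adjusted p = 0.829).

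Each chemical had its own background of calls against DMSO. The share of all probes called was 29.5% for TMD, 31.3% for PMT, 29.1% for CPM, 23.8% for DEHP, 26.7% for MPA, 20.8% for PCB, 19.9% for BPA, 3.34% for T3, 3.32% for DEX, 3.02% for TCDD and 0% for E2 and for DHT. Over the 12 chemicals, 15 of the calls fell on brightest probes of members, with 9 members tested for each chemical. They were 2 of 9 with each of TMD, PMT, CPM, DEHP and MPA, and 1 of 9 with PCB. With BPA 2 of 9 were higher and 2 lower, and the remaining chemicals had 0. Except with BPA, the share of members called was not above that of all probes. All 12 comparisons share the same DMSO array, so they are not independent of each other. All chemicals but E2, DHT and BPA lie in another normalization set of the authors than DMSO, and for them chemical and normalization set cannot be told apart.

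Cell type markers also differed from DMSO with these 5 chemicals. The summed signal of endoderm markers was 7318 to 8882 with TMD, PMT and CPM and 21876 to 25673 with DEHP and MPA, against 20069 on DMSO. Pluripotent markers summed to 19107 to 20878 with TMD, PMT and CPM and 12277 to 15207 with DEHP and MPA, against 17786 on DMSO. Feeder fibroblast markers were below DMSO in all 5, with summed signals of 316.5 to 414.3 with TMD, PMT and CPM and 657 to 783.6 with DEHP and MPA, against 950.1 on DMSO. Of the 4 tested, 3 were lower with each of TMD, PMT and CPM and 1 with each of DEHP and MPA. The part of any of these cell types in the Txnrd1 and Gclc values was not tested. Among TMD, PMT and CPM themselves no member differed, where 0.00522% of probes were called for TMD against PMT and CPM and 0% for PMT and for CPM against the other pair. DEHP against MPA (0% called) gave no member either. For Txnrd1 the differences within these groups were -0.13 for TMD, -0.05 for PMT and 0.18 for CPM, and -0.25 for DEHP against MPA.

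BPA was the chemical with further member calls against DMSO. Nqo1 was 0.82 ± 0.21 higher (SE, adjusted p = 0.00565) and Srxn1 0.56 ± 0.16 higher (adjusted p = 0.0125), a call lost without BPA 100 pM (0.055) and with the mean of the 3 probes (0.107). Gclm, at 11.70 and 11.57 with BPA, against 12.04 on DMSO, had a difference of -0.41 ± 0.14 (adjusted p = 0.0333), a call lost without BPA 100 pM (0.152), without a filter on detection (0.0634) and without the trend in the spread (0.0949). Tiparp was not detected with BPA (5.004 and 5.037) and was detected on DMSO (6.26), at least 1.30-fold lower (adjusted p = 0.0493), a call that was lost without either BPA array (0.131 and 0.113) and under 4 of the other settings (0.0643 to 0.118). With TCDD against DMSO, 0 members passed by their brightest probe. The dimmest Srxn1 probe was -0.99 ± 0.25 lower (adjusted p = 0.0295), the brightest had -0.27 ± 0.16 (adjusted p = 0.360), and Cyp1b1 had 0.60 ± 0.37 (adjusted p = 0.373).

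**Figure D4:**
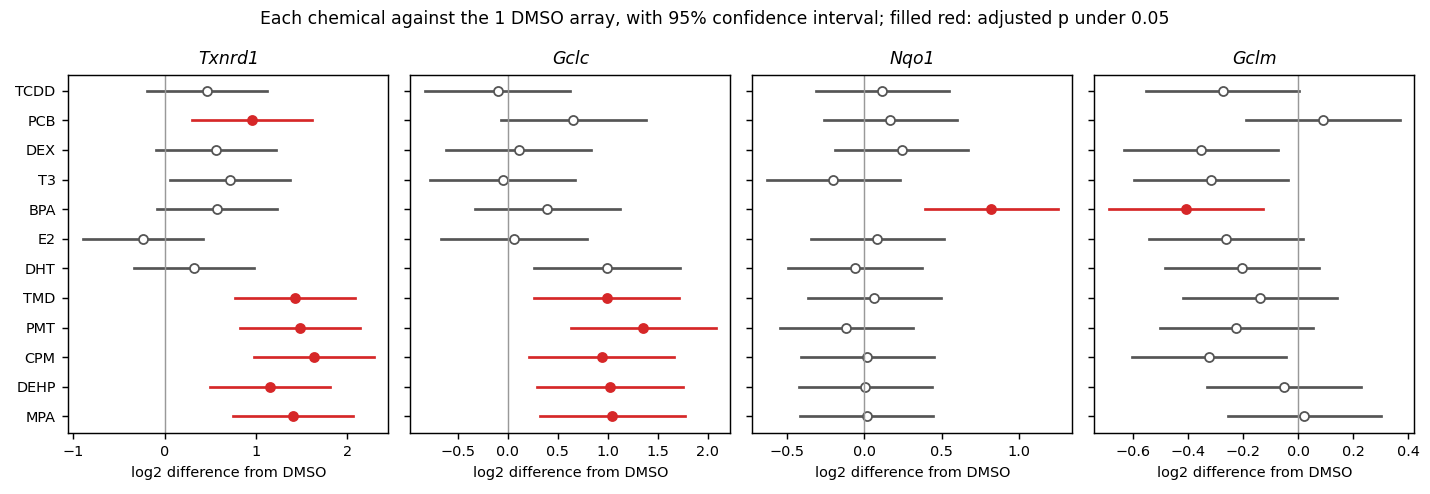
Log2 difference from the DMSO array (horizontal axis) of Txnrd1, Gclc, Nqo1 and Gclm for each chemical, with 95% confidence intervals from limma, filled red where the adjusted p was under 0.05. Txnrd1 is filled for 6 chemicals and Gclc for 5, and Nqo1 and Gclm only for BPA, on opposite sides of 0.

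In the remaining comparisons no member passed. For E2 against DHT (0% of probes called) Gclc had 5.56 and 5.31 with E2, neither detected, against 6.45 and 6.29 with DHT, both detected. The difference was -0.93 ± 0.29 (SE, n = 2 and 2 arrays, unadjusted p = 0.00318, adjusted p = 0.129), with DHT at least 1.18-fold higher. It ran from -1.06 to -0.80 with 1 array left out. For DEX against T3 (0% called) Nqo1 had 8.98 and 8.88 with DEX, against 8.46 and 8.52 with T3, a difference of 0.44 ± 0.17 (SE, unadjusted p = 0.0156, adjusted p = 1).

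Dose was tested with the chemical as a block, the higher against the lower dose. Over the 5 chemicals at micromolar doses 0% of probes were called, and 0% over the 6 at nanomolar doses. Of the members, 0 of 9 passed in either, with 0 member probes at an unadjusted p under 0.05. Over the micromolar chemicals, Ahrr had the widest difference, -0.27 (95% interval -0.62 to 0.08), and Txnrd1 had 0.06 (-0.30 to 0.41) and Gclc 0.05 (-0.34 to 0.44). Over the nanomolar ones Tiparp had 0.18 (-0.27 to 0.64) and Cyp1b1 -0.10 (-0.47 to 0.27). The difference between the micromolar and the nanomolar dose effects was tested as well, and 0 members passed.

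The spread between the doses of a chemical differed among the members. The pooled SD was 0.11 for Gclm and for the brightest Srxn1 probe, 0.17 for Nqo1, 0.18 for Ahrr, 0.20 for Hmox1, 0.27 for Cyp1b1, 0.28 for Gclc, 0.32 for Txnrd1 and 0.43 for Tiparp. The other Srxn1 probes had 0.10 (ILMN_2667346) and 0.12 (ILMN_1229994, the dimmest). The SDs of the brightest members, Gclm and Srxn1, were the lowest, but Ahrr, near background, had a lower SD than Hmox1.

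For correlations the arrays were grouped as DMSO with E2 and DHT, BPA alone, and T3 with DEX, TCDD and PCB. The other groups were TMD with PMT and CPM, and DEHP with MPA. The sample labels do not give these groups. With the mean of each group removed, the members varied together only in part over the 25 arrays. Of 36 pairs of members, Gclm and Srxn1 had the highest Pearson r, 0.539, followed by Gclc and Txnrd1 at 0.506, and Cyp1b1 and Ahrr the lowest, -0.27. The genes most like a member by this measure were Ciao2b (0.849), Slc23a4 (0.842) and Lgals1 (0.833) for Gclm, Nudt21 (0.791), C1qbp and Ppp6r3 for Srxn1, Pa2g4 (0.771), Etv3 and Hsf2 for Hmox1, 1810044D09Rik (0.768), Rpl30 and Smtnl2 for Nqo1, and Pcmtd2 (0.743), Tars and Prelid1 for Txnrd1. Slc23a4 was detected on 9 of the 25 arrays and Prelid1 on 8, so their correlations rest mostly on values below detection. These correlations are descriptions of arrays that share their normalization, and the most alike were picked from all measured genes.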

How the data were processed

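RNA of EBs after 48 h was measured on 25 Illumina arrays. The signal intensity of each probe, already background-subtracted (31.7% to 35.0% of values below 0), and its detection p-value were taken from the non-normalized table deposited by the authors. A second intensity table, normalized by the authors in GeneSpring in sets of 7 and 18 arrays (medians 11.5 to 11.6 and 13.5 to 13.6), served as an alternative. Per array 14451 to 16381 probes were detected, and the number of arrays limits the precision.

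Background was corrected with nec in limma 3.58.1 (R 4.3.3, offset 16), the arrays were quantile-normalized and put on the log2 scale, and a probe was kept where its detection p was under 0.01 on at least 2 arrays (19140 probes). A gene was represented by its brightest kept probe, and all 3 Srxn1 probes are given. Of all probes, 34885 had 1 symbol, 18 several and 10378 none in the annotation. Chemicals were compared in limma (lmFit, eBayes with trend) with p-values adjusted by Benjamini-Hochberg over the kept probes (threshold 0.05). Doses were compared with chemical as a block (9 residual degrees of freedom). Exact permutation tests over arrays were two-sided. Where a group was nowhere detected and the other on all its arrays, folds are bounds against the lowest detected signal of each array. The fits were tested on simulated data.

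The 10 members and the pathway and marker lists were chosen with earlier results of these data known. All members are named. Of the other lists, genes that passed or had high levels are named. The wider-list genes named with PCB and BPA were picked after their values were seen. The methods state triplicate experiments, whereas the labels give 1 array per condition. They name the first version of the array, the tables the second. Alternatives concerned background, scaling, filter, probe summary, trend, dose term, the methods' t-test and arrays left out.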

Additional observations from a re-analysis of the deposited data

How the results depend on the processing

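The count of member genes called for TCDD against T3 and DEX was 0 under every alternative run, and that for higher against lower dose was 0 likewise. For PCB against T3 and DEX it was 1, and 2 with the signal floored at 16 without further background correction, with median scaling, with the authors' table, with the mean of a gene's probes, without trend and with the 8 nanomolar arrays alone. Leaving out 1 array gave 0 to 2, with 0 without PCB 10 nM. For TCDD against PCB it was 1, and 0 with median scaling and with the methods' t-test, 2 with probes detected on all 25 arrays, with the mean of probes, with a dose term and with the 8 arrays alone. Leaving out 1 array gave 0 to 3, with 3 without E2 10 nM and 0 without PCB 10 nM. For chemicals against DMSO it was 15, and 9 without a filter or with probes detected on all arrays, and 11 to 18 with 1 array left out. The last count covered E2 against DHT, BPA against E2 and DHT, DEX against T3, and the comparisons among micromolar chemicals. It was 4, all of BPA against E2 and DHT, and 1 with the methods' t-test after adjustment.

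At the methods' unadjusted threshold the two-sided t-test called Cyp1b1 for TCDD against T3 and DEX (1260 probes in all, 0 after adjustment) and Gclm, Hmox1 and Gclc for PCB against T3 and DEX (5818 probes, 1756 after adjustment).

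Signs turned only for differences that did not pass with all arrays and the settings described. For TCDD against T3 and DEX, median scaling gave 0.10 for Gclc and 0.13 for Ahrr, and the mean of probes -0.087 for Srxn1. For PCB against T3 and DEX, median scaling gave 0.022 for Ahrr. With 1 array left out, TCDD against T3 and DEX ranged from -0.036 to 0.14 for Srxn1, -0.0090 to 0.13 for Gclm, -0.73 to 0.38 for Txnrd1 and -0.56 to 0.30 for Gclc. PCB against T3 and DEX ranged from -0.10 to 0.89 for Tiparp and -0.12 to 0.0065 for Ahrr. TCDD against PCB ranged from -0.12 to 0.0095 for Nqo1, -1.05 (without TCDD 1 nM, adjusted p = 0.00898) to 0.057 for Txnrd1, -0.056 to 0.068 for Ahrr, -0.66 to 0.34 for Tiparp and -0.055 to 0.41 for Cyp1b1. The causes were not tested.

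Median scaling left 41.8% of calls for BPA against E2 and DHT higher, against 55.3% with quantiles. The authors' table gave no value across its sets. Apart from the dose comparison, which has the chemical as a block, no paired analysis was possible because the labels give no replicate numbers. Genes near background, Cyp1b1, Tiparp, Ahrr and Gclc, are limited by signal, and Ahr could not be tested.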
